A study of Homo sapiens with 4 samples.

Results

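The genes described here are 32 members of the glycolytic pathway and of the transcriptional response to low oxygen, measured in 2 human cancer cell lines after transfection of the microRNA miR-891b or of a negative control. They comprise 17 glycolytic and lactate dehydrogenase enzymes, 2 glucose transporters and 13 other hypoxia targets, out of 43310 gene names on the array. Members were chosen by name, and where a gene had several probes the probe with the highest mean signal over the 4 arrays was taken. All 32 names were found on the array, on 43 probes, and 9 of the genes had more than 1 probe. The members that were well above background on all 4 arrays numbered 30, the others being SLC2A3 and CA9.

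HCT116 is a line from a colorectal cancer and A549 a line from a lung cancer. Each line was transfected with the lipid reagent Dharmafect1 carrying either miR-891b or the control NC1, which gave 4 groups, an NC1 and a miR-891b group in each line. No genotype was altered, HCT116 was grown in McCoy's 5A medium and A549 in DMEM, and neither the dose nor the time after transfection was given in the sources used here. Each group was 1 array of RNA from bulk cells, so no difference has a replicate check and no p-value is given, and fewer cells of a type cannot be told apart from less RNA per cell. The arrays of each line lay on a slide of their own. Line, medium and slide therefore cannot be told apart, while the comparison of the transfections stays inside a slide.

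Glycolysis splits glucose into pyruvate in an investment phase, which spends ATP, and a payoff phase, which returns ATP and NADH. Lactate dehydrogenase then turns pyruvate into lactate and regenerates NAD. Hypoxia-inducible factors (HIFs) are transcription factors whose alpha subunits are marked for destruction by oxygen-dependent prolyl hydroxylases and the VHL ubiquitin ligase. When oxygen is scarce the alpha subunit pairs with ARNT, binds the core sequences ACGTG and GCGTG, and raises glycolytic enzymes, glucose transporters and genes for blood vessel growth, acid balance and mitochondrial turnover. Many cancer lines keep both programmes active in culture. Serine synthesis branches off glycolysis at 3-phosphoglycerate, and the series concerns PSAT1, an enzyme of that branch.

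MicroRNAs act by pairing of their seed, bases 2 to 8, with messenger RNAs. The mature sequence is shown because it defines the agent that was transfected, with the seed in capitals (RefSeq, GRCh38.p14, chrX:146001100-146001121, minus strand).
hsa-miR-891b: uGCAACUUaccugagucauuga
The reverse complement of this seed, AAGTTGC, occurred in 229 of 58201 gene probes (0.393%) and in 0 of the 43 member probes. The probes are 60 bases long and cover only a small piece of each transcript, so this says only that these letters are not in those pieces.

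Processed signals at the 75th percentile, the reference for every level below, were 54.9 and 57.0 in HCT116 and 74.8 and 74.2 in A549. Pairs of values for a line are given in this order throughout, NC1 first and miR-891b second. Between 44.7% and 50.3% of gene probes were well above background, and no gene spot was saturated. HCT116 miR-891b stood apart in that 10.5% of its gene spots lay in areas of stray signal, against 0.021% to 2.20% on the other arrays, and 6 members had a spot in such an area, GAPDH, ENO1, LDHA, ADM and KDM3A on HCT116 miR-891b and PFKP on A549 miR-891b. Probes printed at several spots had a median standard deviation of 0.061 (log2, 276 probes) for the difference between miR-891b and NC1 in HCT116 and 0.071 (287 probes) in A549. That spread is technical and covers no difference between cultures. Of 8 markers listed for A549, AKR1B10, AKR1C1, ALDH3A1, KRT81 and NQO1 were measured on both NC1 arrays, and all 5 were higher in A549. ALDH1A1 was above background only in A549. Of the lung genes on this list, NKX2-1 was above background only in HCT116 and SFTPB was dim on every array. Of 8 colorectal markers, CDX2, EPCAM, CLDN7 and CLDN3 were higher in HCT116, and LGALS4, CDH17 and VIL1 were above background only in A549. Of 7 fibroblast markers, COL1A2, COL3A1 and DCN were dim on every array, while COL1A1 (0.01 to 1.02) and PDGFRB (-1.89 to -0.48) were above background on all 4. LUM was above background only in A549, at 1.03 on NC1 and 3.17 on miR-891b, and PDGFRA only on A549 miR-891b, at -3.68. The part of other cells in the results was not tested.

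**Figure D1:**
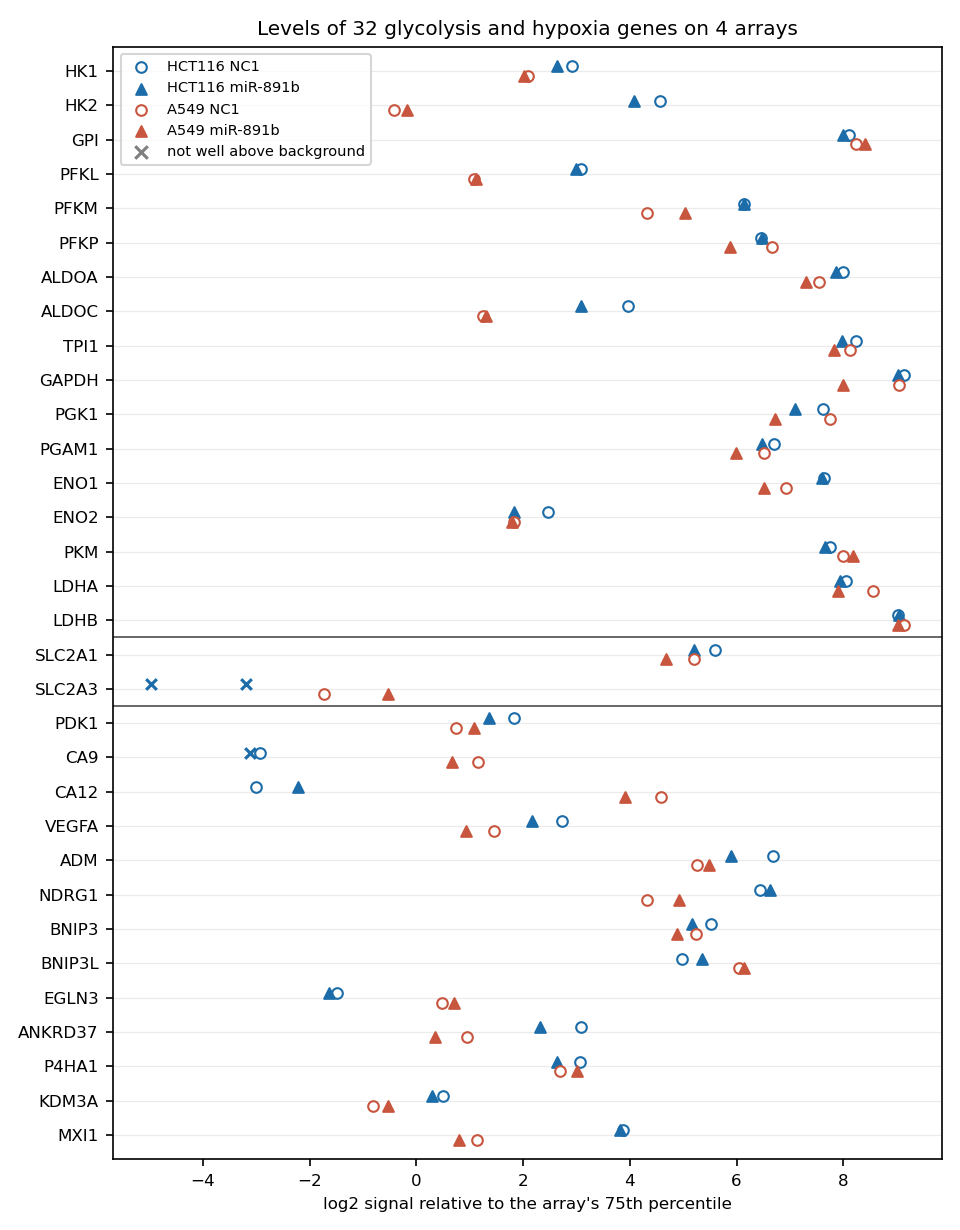
Level of each gene (log2 processed signal relative to the array's 75th percentile) on the 4 arrays, 1 array per group, with NC1 as open circles, miR-891b as triangles, HCT116 in blue and A549 in red. The gap between the lines exceeds the gap between transfections for HK2, ALDOC, PFKL, CA9 and CA12, while crosses mark the SLC2A3 and CA9 values that were not well above background. Levels of different genes come from different probes and are not comparable with each other.

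After miR-891b, 0 of the 30 members measured in HCT116 changed by 2-fold or more, against 0.843% of all genes that were at least 2-fold lower and 1.16% at least 2-fold higher. In A549, 2 of 32 members were at least 2-fold lower (background 5.57%), the payoff-phase enzymes GAPDH and PGK1. Only SLC2A3, a high-affinity glucose transporter, was at least 2-fold higher (background 4.01%). At 1.5-fold, 4 members were lower in HCT116 (ALDOC, ADM, ANKRD37 and ENO2; background 5.65%) and 1 was higher (CA12; background 3.91%). The corresponding counts in A549 were 6 lower (GAPDH, PGK1, PFKP, CA12, LDHA and ANKRD37; background 15.3%) and 3 higher (SLC2A3, PFKM and NDRG1; background 11.1%). The share of members lower in HCT116 was above its background, and the other shares at 1.5-fold were near theirs.

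Small decreases were frequent among the members in HCT116. Of 30 measured members 24 lay below 0, against 55.5% of all genes. After quantile normalization 19 of 30 did, and without probes in areas of stray signal 19 of 25 did. The shares over all genes in these settings are not given here, so these counts cannot be set against a background. The median change of the members was -0.18 (log2, miR-891b minus NC1), compared with -0.04 for all genes. With another background correction and quantile normalization it was -0.06, compared with -0.015 for all genes. In A549, 18 of 32 members lay below 0, against 55.6% of all genes, with a median of -0.09 for members and -0.06 for all genes. The A549 median turned to 0.09 under quantile normalization, so it had no settled direction. Relative to the median of all genes, the member medians were -0.14 in HCT116 and -0.03 in A549.

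The lines shared the sign of the change in about the proportion seen among all genes. Among the 30 members measured in both, 17 had the same sign, against 54.9% of all genes. Both lines were below 0 for 14 members (background 33.8%) and above 0 for 3. HCT116 was below 0 and A549 above for 10 members (background 21.8%), and 3 members had the reverse. Shares over all genes for either count of 3 are not given here, so these counts cannot be set against a background. ANKRD37, an ankyrin repeat protein known as a HIF target, was the 1 member at least 1.5-fold lower in both lines (background 1.38%). Across these 30 genes the changes in the lines had Pearson r = -0.02 and Spearman rho = -0.01. Genes of the same arrays are not independent replicates, and these values only describe the scatter.

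**Figure D2:**
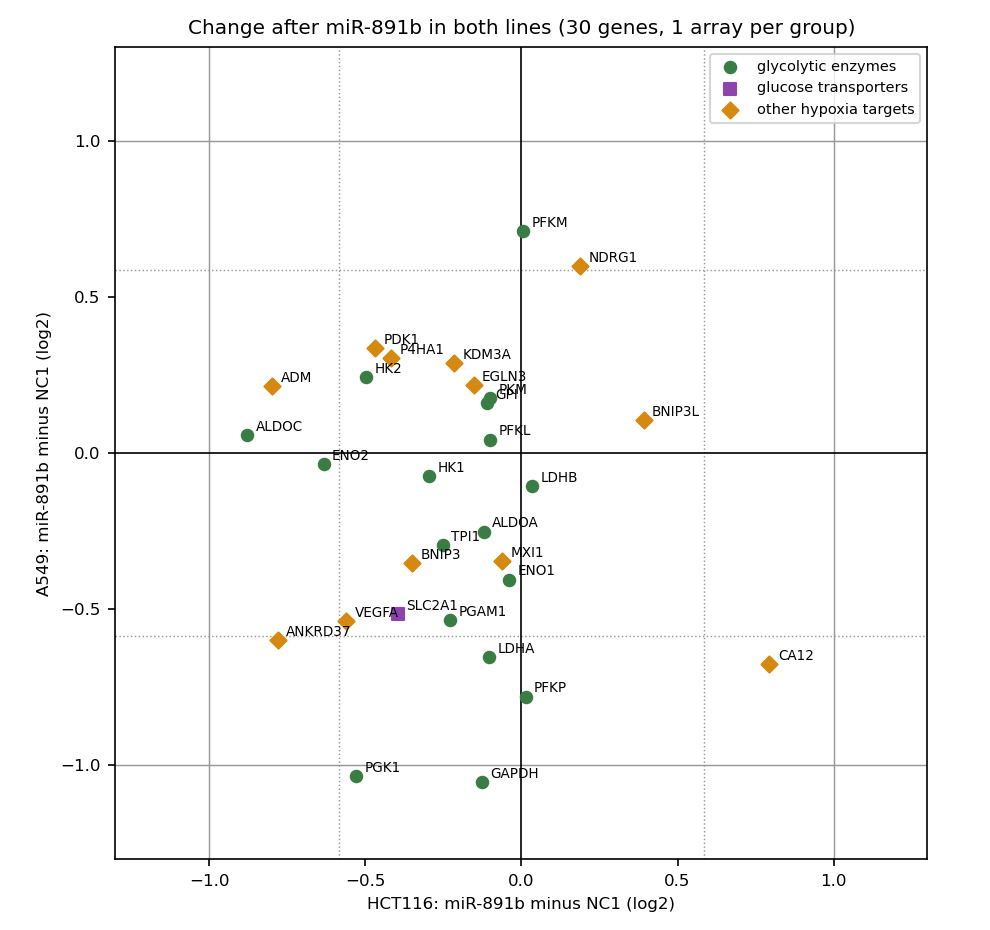
Change after miR-891b (log2, miR-891b minus NC1) in HCT116 on the horizontal axis and in A549 on the vertical axis for the 30 genes measured in both lines, 1 array per group. Solid grey lines mark 2-fold and dotted lines 1.5-fold. GAPDH and PGK1 lie just past 2-fold in A549, and 10 genes lie in the upper left, below 0 in HCT116 and above 0 in A549. CA12 lies far to the lower right, on the same side as PFKP and LDHB, whose HCT116 changes are only 0.01 and 0.03.

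In the investment phase, hexokinase traps glucose in the cell as glucose 6-phosphate. The isoform HK1 had levels of 2.92 and 2.63 in HCT116 and 2.09 and 2.02 in A549. HK2, the isoform commonly raised in tumours, had 4.57 and 4.07 in HCT116 and -0.43 and -0.18 in A549. HK2 was therefore 31.9-fold lower in A549 than in HCT116 on the NC1 arrays, and the changes after miR-891b were -0.50 (HCT116) and 0.24 (A549). Its other probe did not clear background on the 4 arrays. GPI, which converts glucose 6-phosphate to fructose 6-phosphate, stayed between 7.996 and 8.40 on all 4 arrays.

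Phosphofructokinase commits the sugar to glycolysis and has 3 isoforms with unlike patterns here. PFKL, the liver type, had 3.09 and 2.99 in HCT116 and 1.08 and 1.12 in A549, a difference between the lines with changes of only -0.10 and 0.04 within them. PFKM, the muscle type, had 6.14 on both HCT116 arrays and 4.32 and 5.03 in A549. It was thus 1.64-fold higher after miR-891b in A549 and did not move in HCT116. PFKP, the platelet type, had 6.45 and 6.47 in HCT116, 6.66 and 5.88 in A549. Its change of -0.78 in A549 came from a probe in an area where 23.2% of nearby dim spots carried stray signal on A549 miR-891b, and its other probe gave -0.41; the part of the stray signal was not tested. PFKM and PFKP thus moved in opposite directions in A549.

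Aldolase splits fructose 1,6-bisphosphate into the 3-carbon sugars that TPI1 interconverts. ALDOA, the ubiquitous isoform, had 7.98 and 7.86 in HCT116 and 7.55 and 7.30 in A549. ALDOC, the brain isoform and a known HIF target, had 3.96 and 3.09 in HCT116 and 1.25 and 1.31 in A549. ALDOC was 1.84-fold lower after miR-891b in HCT116, the lowest change of any member in that line, and moved by 0.06 in A549. TPI1 had 8.23 and 7.98 in HCT116 and 8.12 and 7.83 in A549, changes of -0.25 and -0.29.

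In the payoff phase, GAPDH oxidises glyceraldehyde 3-phosphate and is commonly used as a reference gene. Its levels were 9.14 and 9.02 in HCT116 and 9.05 and 7.995 in A549. The other 3 arrays lay within 0.13 of each other, and A549 miR-891b was 2.07-fold below A549 NC1. The probe (hg19, chr12:6646918-6646977) was printed at 10 spots, of which 9 were free of outlier marks on both A549 arrays, and these gave a mean change of -1.04 ± 0.03 (SD over spots), from -1.07 to -0.97. Of these 9 spots 7 were past 2-fold, so the value lay on the threshold.

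PGK1, which makes the first ATP of the payoff phase from 1,3-bisphosphoglycerate, had 7.62 and 7.09 in HCT116 and 7.75 and 6.72 in A549. It was lower after miR-891b in both lines, by 1.44-fold in HCT116 and by 2.05-fold in A549. Its probe (hg19, chrX:77381462-77381521) also had 10 spots, with -0.53 ± 0.04 in HCT116 and -1.03 ± 0.05 in A549 (SD over 10 spots), all below 0. For A549 both GAPDH and PGK1 depended on the scaling. GAPDH changed by -0.62 and PGK1 by -0.68 after quantile normalization, and by -0.58 and -0.61 with normexp background correction before it, so neither was then past 2-fold.

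The enzymes downstream of PGK1 stayed within 2-fold in both lines. PGAM1, phosphoglycerate mutase, had 6.71 and 6.48 in HCT116 and 6.52 and 5.98 in A549, and its second probe gave -0.24 and -0.86 in the same lines. ENO1, the ubiquitous enolase, had 7.64 and 7.60 in HCT116 and 6.92 and 6.51 in A549. ENO2, the neuronal enolase, had 2.47 and 1.83 in HCT116 and 1.83 and 1.79 in A549, so that only HCT116 NC1 stood above the others. PKM, pyruvate kinase, was the 1 payoff-phase enzyme above 0 in A549, with 7.76 and 7.66 in HCT116 and 7.996 and 8.17 in A549. LDHA, the lactate dehydrogenase subunit that HIF raises, had 8.04 and 7.94 in HCT116, 8.55 and 7.89 in A549. A second probe named LDHA, placed by the file on chromosome 9, gave -0.07 in HCT116 and -0.77 in A549, close to the -0.10 and -0.65 of the first. On HCT116 miR-891b the second probe lay in an area with 19.1% stray signal and the first in one with 10%. The part of the stray signal was not tested. LDHB, the other subunit, stayed between 9.02 and 9.13 on all 4 arrays.

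Grouped by phase, a split made after the values were seen, the 8 payoff and lactate enzymes had a median of -0.47 in A549 with 7 below 0. The 9 investment enzymes had 0.04 with 4 below 0. After quantile normalization these medians were -0.16, with 5 of 8 below 0, and 0.14, with 2 of 9 below 0. Without areas of stray signal, which dropped GAPDH, ENO1 and LDHA, the A549 payoff median was -0.11 over 5 genes, with 4 below 0. The dropped genes had stray signal on HCT116 miR-891b and not on an A549 array. In HCT116 the medians were -0.11 and -0.12, and the payoff median turned to 0.01 under quantile normalization. Bright probes in general were lower in A549 after miR-891b, which bears on this split. Among the 1043 genes with a mean level of at least 6, 76.4% lay below 0 with a median of -0.30, and 9.11% were at least 2-fold lower. The 11 members above that level, all glycolytic or lactate enzymes, had 9 below 0, a median of -0.41 and 2 at least 2-fold lower. In HCT116, 68.8% of the bright genes and 9 of the 11 members lay below 0, with medians of -0.11 for both. The share below 0 and the median of these members were thus near those of other bright genes in each line.

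**Figure D3:**
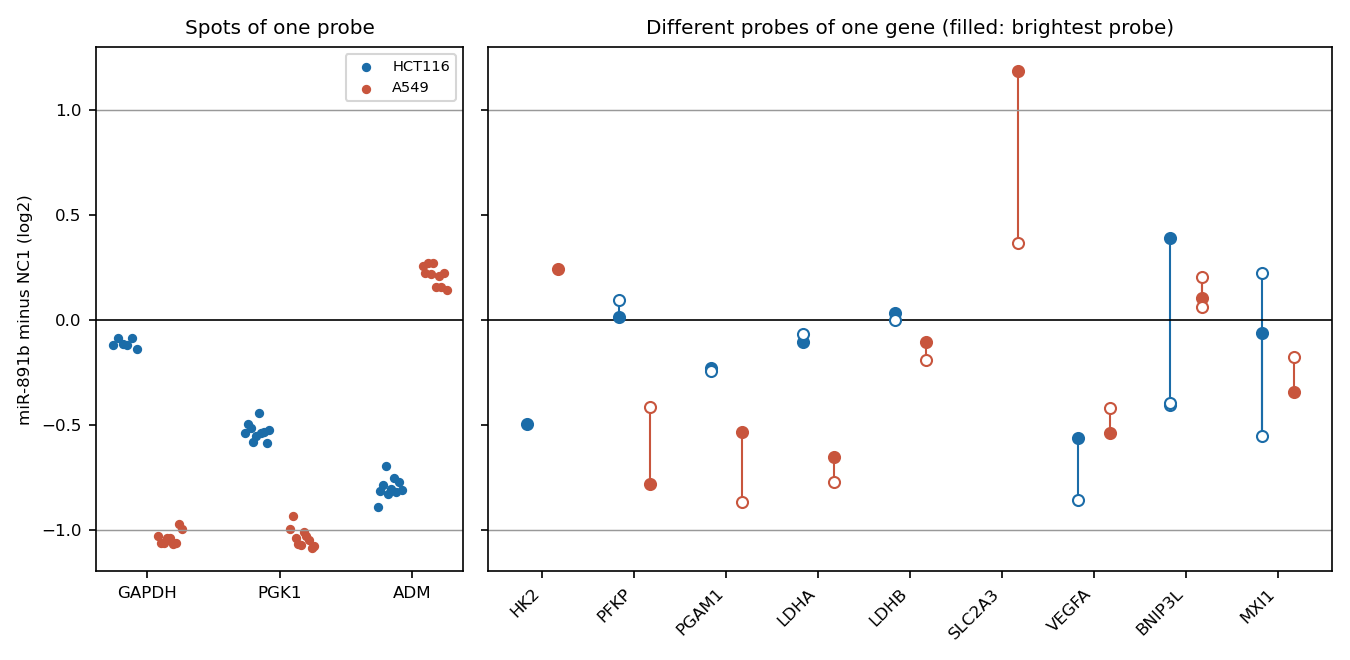
Left, the change after miR-891b (log2) at each spot of the 3 probes printed at 10 spots, without spots marked as outliers. Right, the change by probe for genes with more than 1 probe, filled for the brightest probe, with blue for HCT116 and red for A549. Spots of GAPDH and PGK1 in A549 sit around -1, those of ADM in HCT116 around -0.80, and the probes of BNIP3L and MXI1 lie on both sides of 0 in HCT116.

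SLC2A1 (GLUT1), the main glucose transporter of proliferating cells and a HIF target, had 5.60 and 5.21 in HCT116 and 5.20 and 4.68 in A549. The changes were -0.40 in HCT116 and -0.52 in A549. SLC2A3 (GLUT3) was not well above background on either HCT116 array. In A549 it had -1.73 on NC1 and -0.54 on miR-891b, a change of 1.19, but its second probe gave 0.36 and normexp with quantile normalization gave 0.34. Both SLC2A3 probes were dim, with processed signals of 22.6 and 51.0 for the first on the A549 arrays. As a bound, set against the higher of the dim probe's own HCT116 value and the lowest level well above background on that array, the first probe was at least 2.78-fold higher in A549 on the NC1 arrays and at least 6.04-fold higher on the miR-891b arrays.

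Among the other hypoxia targets, the carbonic anhydrases, which regulate pH, differed most between the lines. CA9, a membrane carbonic anhydrase widely used as a marker of HIF activity, had -2.93 on HCT116 NC1, was not well above background on HCT116 miR-891b, and had 1.15 and 0.67 in A549. CA12, a related membrane carbonic anhydrase, had -3.01 and -2.21 in HCT116 and 4.58 and 3.91 in A549. Its changes had opposite signs, 0.79 in HCT116 and -0.68 in A549. In HCT116 the probe was close to background, with processed signals of 6.82 and 12.3, and normexp with quantile normalization reduced the HCT116 change to 0.15. CA12 was 193-fold higher in A549 than in HCT116 on the NC1 arrays, the largest difference between the lines among the members, and CA9 was 16.9-fold higher.

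VEGFA, the vascular growth factor, had 2.72 and 2.16 in HCT116 and 1.46 and 0.92 in A549. It was lower after miR-891b by nearly the same amount in both lines, -0.56 and -0.54, and its second probe gave -0.86 and -0.42. ADM, which encodes the vasodilator adrenomedullin, had 6.69 and 5.89 in HCT116 and 5.27 and 5.48 in A549. Its 10 spots gave -0.80 ± 0.05 in HCT116, all below 0, and 0.21 ± 0.05 in A549, all above 0 (SD over 10 spots). On HCT116 miR-891b 2 of the 10 spots lay in an area of stray signal, and without them the HCT116 mean was still -0.80.

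PDK1, a kinase that inhibits pyruvate dehydrogenase, had 1.84 and 1.37 in HCT116 and 0.74 and 1.08 in A549, so the lines moved in opposite directions. NDRG1, a stress-induced gene that rises strongly in hypoxia, had 6.43 and 6.62 in HCT116 and 4.32 and 4.91 in A549. BNIP3, a receptor for mitophagy, had 5.51 and 5.16 in HCT116 and 5.24 and 4.89 in A549, with the same change of -0.35 in both lines. Its relative BNIP3L had 4.97 and 5.36 in HCT116 and 6.04 and 6.14 in A549 on its brightest probe. The other BNIP3L probes gave -0.41 and -0.39 in HCT116 where the brightest gave 0.39, so the direction in HCT116 depended on the probe. In A549 the 3 probes gave 0.11, 0.20 and 0.06.

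EGLN3, a prolyl hydroxylase that HIF itself induces, had -1.48 and -1.63 in HCT116 and 0.49 and 0.70 in A549. ANKRD37 had 3.09 and 2.31 in HCT116 and 0.94 and 0.34 in A549, which is 1.72-fold lower after miR-891b in HCT116 and 1.51-fold lower in A549. In A549 this became -0.38 with normexp and quantile normalization. P4HA1, a collagen prolyl hydroxylase subunit, had 3.06 and 2.64 in HCT116 and 2.70 and 3.002 in A549. KDM3A, a histone H3 lysine 9 demethylase, had 0.51 and 0.29 in HCT116 and -0.82 and -0.53 in A549. MXI1, a MAX partner that opposes MYC, had 3.88 and 3.82 in HCT116 and 1.14 and 0.80 in A549. Its other probes gave -0.55 and 0.22 in HCT116, so no direction was given there.

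As a group the 13 other hypoxia targets had a median change of -0.28 in HCT116, where 9 of 12 measured lay below 0, and 0.11 in A549, where 6 of 13 did. The A549 median was -0.34 when probes with a spot in areas of stray signal on any array were left out. That step dropped ADM and KDM3A, which had 0.21 and 0.29 in A549. Both were dropped for stray signal on HCT116 miR-891b and not on an A549 array. The 17 glycolytic and lactate enzymes had medians of -0.12 in HCT116 and -0.11 in A549, with 14 and 11 below 0, and the A549 value turned to 0.08 after quantile normalization.

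The lines themselves differed far more than the transfections did. On the NC1 arrays, 11 of 31 members were at least 2-fold lower in A549 than in HCT116 (background 16.2%) and 4 were at least 2-fold higher (background 11.1%). Those lower were HK2, MXI1, ALDOC, ANKRD37, NDRG1, PFKL, PFKM, ADM, KDM3A, VEGFA and PDK1, from -5.00 for HK2 to -1.09 for PDK1. Those higher were CA12, CA9, EGLN3 and BNIP3L, from 7.59 for CA12 to 1.07 for BNIP3L, whose other probes gave -0.32 and 0.05. All 4 glycolytic enzymes past 2-fold were investment-phase isoforms, while the 8 payoff and lactate enzymes lay between -0.72 (ENO1) and 0.51 (LDHA). On the miR-891b arrays, 10 of 30 members were at least 2-fold lower in A549 (background 20.7%) and 2 were higher (background 11.4%). CA9 was dim on HCT116 miR-891b and so not counted, but as a bound it was at least 13.7-fold higher in A549 on these arrays. GAPDH at -1.02 and ENO1 at -1.09 were among those lower there, and KDM3A, ADM and PDK1 were not. The median of all genes was itself -0.10 on the NC1 arrays and -0.19 on the miR-891b arrays. It was -0.03 for the miR-891b arrays after normexp and quantile normalization.

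**Figure D4:**
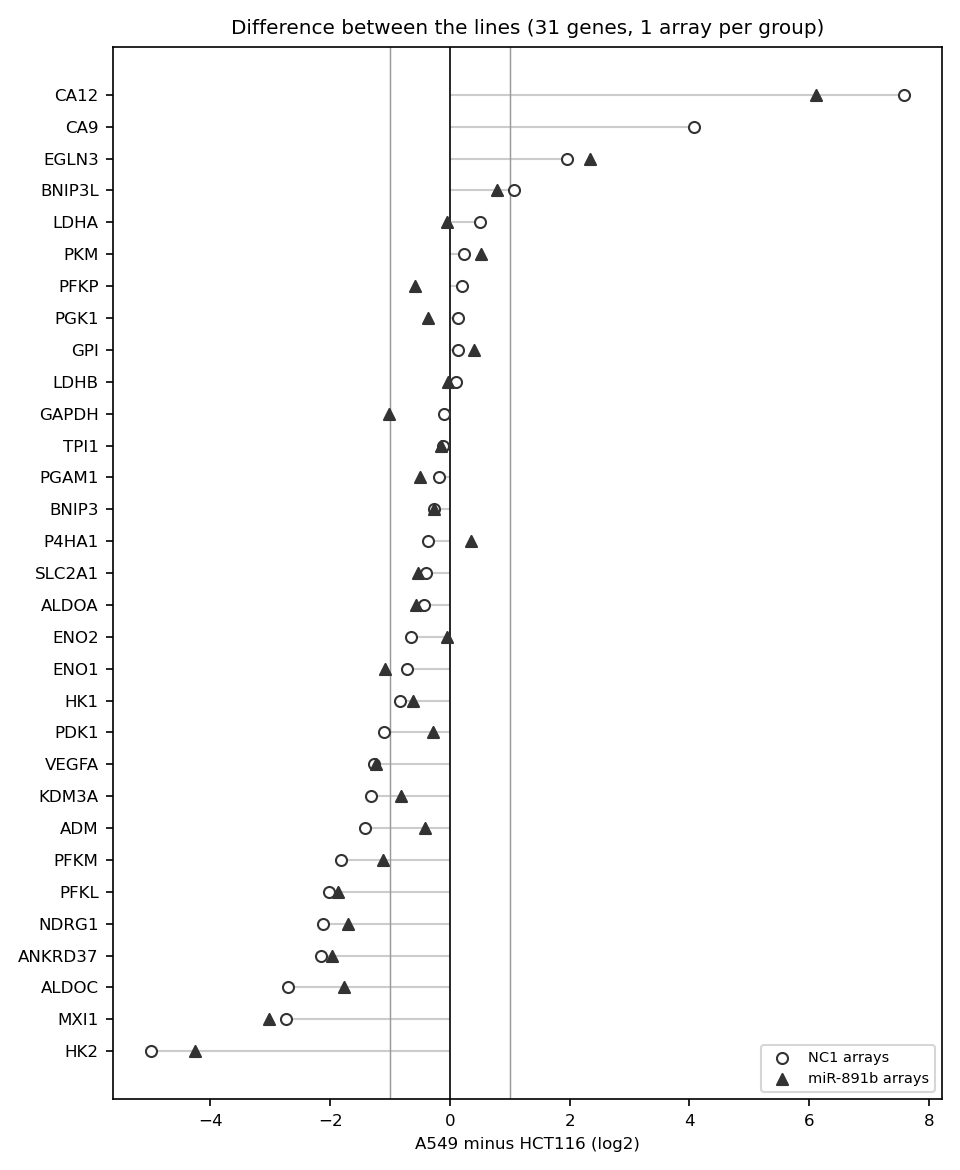
Difference between the lines (log2, A549 minus HCT116) for the 31 genes measured on both NC1 arrays, sorted by that difference, with the miR-891b arrays as triangles where both lines were measured. Grey lines mark 2-fold; the NC1 values run from -5.00 for HK2 to 7.59 for CA12, and each line is 1 array on its own slide.

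Promoter windows of 300 bases (250 before and 50 after the start) were held by RefSeq's GRCh38.p14 table for 28 members, all but SLC2A3, VEGFA, NDRG1 and BNIP3L. On either strand, ACGTG occurred in at least 1 window of 17 of the 28 (60.7%) and in 24.9% of all genes with windows of that length. GCGTG occurred in 17 of 28 (60.7%) against 40.6% of all genes, and 1 or the other in 26 of 28 (92.9%) against 52.4%. Members had more windows per gene and a higher GC content (median 68.3% against 58.7%). Counted per window, 67.3% of member windows and 48.4% of all windows held either core. PGAM1 and EGLN3 were the members whose windows held neither. A match is a run of letters and not a measured binding site.

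The 250 bases before the start are shown for the 2 members past 2-fold lower in A549, the 3 with the lowest changes in HCT116, and CA12, the highest in HCT116. Capitals mark the core ACGTG, the core GCGTG and the reverse complement of either, and CACGTG is read on both strands and counted as 2 overlapping matches of ACGTG.
PGK1 (chrX:78103998-78104247, plus strand): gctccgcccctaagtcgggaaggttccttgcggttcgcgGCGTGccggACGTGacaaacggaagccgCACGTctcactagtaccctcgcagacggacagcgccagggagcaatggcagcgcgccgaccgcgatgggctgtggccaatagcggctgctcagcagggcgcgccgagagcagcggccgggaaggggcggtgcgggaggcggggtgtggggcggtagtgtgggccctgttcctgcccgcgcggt
GAPDH (chr12:6535014-6535263, plus strand): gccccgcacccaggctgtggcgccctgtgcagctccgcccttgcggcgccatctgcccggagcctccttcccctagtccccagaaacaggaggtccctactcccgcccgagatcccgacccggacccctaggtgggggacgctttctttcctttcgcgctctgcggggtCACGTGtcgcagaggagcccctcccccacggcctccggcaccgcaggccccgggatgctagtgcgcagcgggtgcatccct
ALDOC (chr17:28576896-28577145, minus strand): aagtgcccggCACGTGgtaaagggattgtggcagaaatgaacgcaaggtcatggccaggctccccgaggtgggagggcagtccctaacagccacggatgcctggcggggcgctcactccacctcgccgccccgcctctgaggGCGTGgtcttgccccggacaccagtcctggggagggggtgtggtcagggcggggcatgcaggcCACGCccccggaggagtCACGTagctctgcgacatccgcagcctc
ADM (chr11:10304823-10305072, plus strand): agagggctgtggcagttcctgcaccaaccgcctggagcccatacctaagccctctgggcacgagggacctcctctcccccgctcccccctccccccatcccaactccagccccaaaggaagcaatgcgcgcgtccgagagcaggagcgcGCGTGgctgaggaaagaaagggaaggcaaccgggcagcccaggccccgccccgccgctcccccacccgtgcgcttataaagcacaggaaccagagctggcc
ANKRD37 (chr4:185396591-185396840, plus strand): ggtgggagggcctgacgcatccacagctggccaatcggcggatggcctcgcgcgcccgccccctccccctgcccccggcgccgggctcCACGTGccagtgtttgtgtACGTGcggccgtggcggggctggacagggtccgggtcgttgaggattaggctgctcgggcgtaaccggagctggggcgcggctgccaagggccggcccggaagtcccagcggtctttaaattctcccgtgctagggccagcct
CA12 (chr15:63381847-63382096, minus strand): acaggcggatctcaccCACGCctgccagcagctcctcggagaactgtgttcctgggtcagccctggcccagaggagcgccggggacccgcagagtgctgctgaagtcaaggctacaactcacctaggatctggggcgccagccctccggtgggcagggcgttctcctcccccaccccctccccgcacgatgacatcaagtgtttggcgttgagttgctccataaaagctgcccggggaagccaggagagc
Before the start, ALDOC and ANKRD37 each held 3 matches of ACGTG, and PGK1 and GAPDH each held 2. ADM and CA12 held none of ACGTG and 1 of GCGTG each. ALDOC, ADM and ANKRD37 were picked for their low changes in HCT116, and whether the cores bear on the changes was not tested.

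Of 12 genes that make or control HIF, 0 were past 2-fold in HCT116, where 0.843% of all genes were lower and 1.16% higher, and 1 was lower in A549, against 5.57% of all genes. These counts are near the background. The medians were -0.19 in HCT116 and 0.04 in A549, and the gene past 2-fold was EPAS1 (HIF-2 alpha), with 3.88 and 3.62 in HCT116, 5.63 and 4.57 in A549, a change of -1.06. HIF1A (HIF-1 alpha) had changes of 0.01 and -0.05 in HCT116 and A549, ARNT -0.18 and 0.70, VHL 0.00 and 0.26, and EGLN1, the main oxygen-sensing hydroxylase, -0.01 and -0.48. The HIF1A probe lay in an area with 21.1% stray signal on HCT116 miR-891b, and its part was not tested. These are transcript levels, and HIF alpha is controlled mainly as a protein.

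Of 18 further HIF targets on the array outside the 32, 17 were measured in both lines. Of these, 15 were below 0 in HCT116 (median -0.28, with 55.5% of all genes below 0) and 11 in A549 (median -0.21, with 55.6% of all genes). DDIT4, an inhibitor of mTORC1, was the 1 past 2-fold in HCT116, at -1.24. In A549, 4 of 17 were past 2-fold and all were lower, against 5.57% of all genes at least 2-fold lower: ERO1L, an oxidase of the endoplasmic reticulum, at -1.74, the haem oxygenase HMOX1 at -1.26, the lipase inhibitor ANGPTL4 at -1.21 and PFKFB3, which makes the activator of phosphofructokinase, at -1.02. The DDIT4 probe lay in an area with 15.9% stray signal on HCT116 miR-891b and the ERO1L probe in one with 12.9% on A549 miR-891b, and their part was not tested.

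In the neighbouring pathways below, at most 1 gene of each list passed 2-fold in a line. The shares over all genes were 0.843% lower and 1.16% higher in HCT116, 5.57% and 4.01% in A549. Of 16 measured genes of lactate transport and alternative glycolytic isoforms, 0 in HCT116 and 1 in A549 passed 2-fold, the monocarboxylate transporter SLC16A7 at 1.03. Of 12 genes for pyruvate dehydrogenase and pyruvate entry, only the phosphatase PDP1 did, at 1.37 in A549. RPE at -1.13 in A549 was the 1 of 8 pentose phosphate genes. PCK2, the mitochondrial enzyme that makes phosphoenolpyruvate, at -1.44 in HCT116 was the 1 of 3 measured gluconeogenic genes. This is above the HCT116 share, but 3 genes are too few to compare. In A549 PCK2 changed by -0.94. None of 11 glycogen and hexosamine genes and none of 4 measured further hexose transporters passed 2-fold in either line, with medians of -0.04 and -0.27 in HCT116 and 0.15 and 0.29 in A549.

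At the branch to serine, PHGDH changed by -0.92 in HCT116 and -1.496 in A549, PSAT1 by -0.81 and -1.58, and PSPH by -0.27 and -0.59. The PHGDH probe lay in an area with 12.03% stray signal on HCT116 miR-891b, and its part was not tested. All 3 were thus lower in both lines, and PHGDH and PSAT1 in A549 were lower than any of the 32 members in that line. All 12 proliferation genes examined were at least 2-fold lower in A549 after miR-891b (median -1.74), where 5.57% of all genes were. In HCT116 0 of 12 were (median 0.07), where 0.843% of all genes were. This list was chosen as context for A549 with earlier results of these data known, so its count in A549 is not an independent result. Stray signal around the probe was past 10% for CDK1 on A549 miR-891b (29.4%) and for MKI67, CCNA2 and MCM6 on HCT116 miR-891b (10.4% to 19.8%). The proliferation genes were lower in A549, the line in which GAPDH and PGK1 passed 2-fold. PGK1 was also lower in HCT116, at -0.53, where the proliferation median was 0.07. The part of the proliferation genes in the values of the glycolytic genes was not tested.

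**Figure D5:**
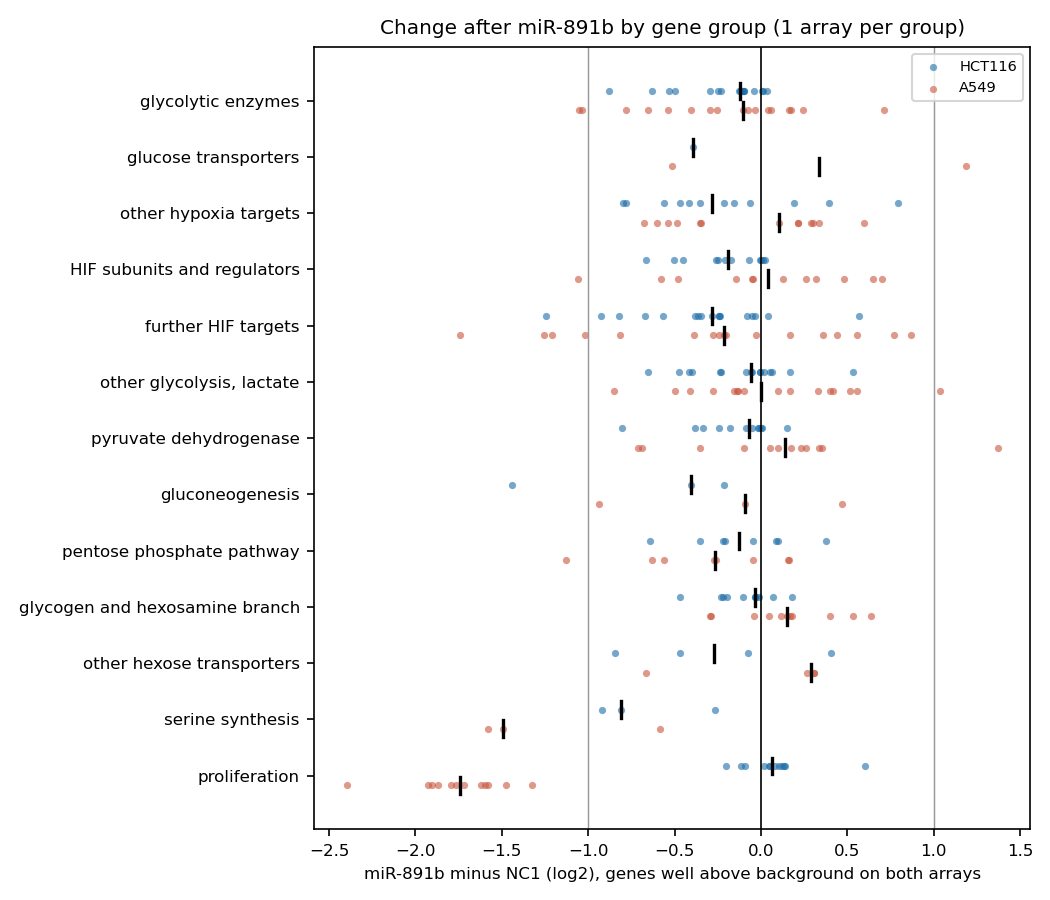
Change after miR-891b (log2) of each measured gene by group, with HCT116 in blue, A549 in red and the median as a black bar, 1 array per group. Grey lines mark 2-fold; the serine synthesis genes (medians -0.81 and -1.496) and, in A549, the proliferation genes (median -1.74) lie further from 0 than the glycolytic and hypoxia groups.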

How the data were processed

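Total RNA of the 4 groups (100 ng) was Cy3-labelled for 1-colour Agilent arrays, per the labels. Per the file headers, signals were extracted with Feature Extraction 11.5.1.1, with background subtraction and detrending, and hg19 is the build of the probe positions. Each deposited scanner file is a linear intensity per spot, unscaled between arrays. The authors' deposited log2 values equalled the levels used here with a median difference of at most 0.0069 on each array and 0.109 at the most. Their scaling is not stated in the sources used here.

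Gene spots without outlier marks were averaged as log2 signal per probe, and the array's 75th percentile was subtracted. A change needed a probe well above background on both arrays and was called at 2-fold. Where a probe was dim on 1 side, a bound was computed against the higher of the lowest level well above background on that array and the dim probe's own level. A spot was in an area of stray signal where, among neighbouring spots (10 rows and columns to each side) that no other array marked well above background, at least 10% carried that mark. The 32 members, the gene lists and the tests were chosen with earlier results of these data known, and the names given outside the members are the genes past 2-fold after miR-891b, the 3 serine synthesis enzymes, HIF1A, EPAS1, ARNT, VHL, EGLN1 and markers of the lines and of fibroblasts. The split by glycolytic phase, the comparison with bright genes (mean level of at least 6) and the values per spot were added after the data were seen.

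Alternatives were normexp with an offset of 50 followed by quantile normalization (limma 3.58.1 in R 4.3.3), quantile normalization alone, median scaling, other filters on dim probes, the mean over probes, leaving out stray areas, the authors' values, and thresholds of 1.5-fold and 3-fold. The steps were tested on simulated data and run with Python 3.11.15, numpy 2.4.6 and pandas 2.3.3. All 32 names were current symbols in the RefSeq table for GRCh38.p14, which gave the sequences. With 1 array per group, the number of arrays limits the precision.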

Additional observations from a re-analysis of the deposited data

Results flagged for a closer look

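The changes after miR-891b in 13 members had opposite signs in the lines, with 1 array per group, and whether the lines truly differ in this was not tested. The same sign was seen in 17 of 30 members, against 54.9% of all genes, so the count of opposite signs was near the background. As A549 change minus HCT116 change (log2), the members lower in HCT116 and higher in A549 had 1.01 for ADM, 0.93 for ALDOC, 0.80 for PDK1, 0.74 for HK2, 0.72 for P4HA1, 0.50 for KDM3A, 0.37 for EGLN3, 0.28 for PKM, 0.27 for GPI and 0.14 for PFKL. The members with the reverse had -1.47 for CA12, -0.79 for PFKP and -0.14 for LDHB. The median of the other hypoxia targets differed by 0.39 between the lines. For PFKL, GPI, PKM and LDHB the changes within each line were 0.18 or less in size. The number of members with opposite signs was 13 of 30 in the main setting, 16 of 30 after quantile normalization, and 11 of 25 without areas of stray signal.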

How the results depend on the processing

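No paired analysis was possible because each group holds 1 array, and no replicate could be left out for the same reason. Of the 2-fold calls among the members, those lower in A549 went from 2 to 0 under quantile normalization, normexp with quantile normalization and median scaling, to 1 without areas of stray signal (which drops GAPDH for a spot on HCT116 miR-891b, with 0 of its A549 spots in such an area), to 6 at 1.5-fold and to 0 at 3-fold. The call higher in A549 went from 1 to 0 under normexp with quantile normalization, with a requirement of all 4 arrays above background, with the mean over probes and at 3-fold, and to 3 at 1.5-fold. In HCT116 the 0 lower became 1 with no filter on dim probes and 4 at 1.5-fold, and the 0 higher became 1 at 1.5-fold. Between the lines, 11 lower became 7 at 3-fold.

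Under normexp with quantile normalization the HCT116 medians were -0.062 for members, -0.025 for glycolytic enzymes and -0.19 for other hypoxia targets, and the A549 medians were 0.059 for members and 0.058 for glycolytic enzymes. Under quantile normalization alone they were -0.014 for glycolytic enzymes in HCT116, and 0.087, 0.075 and 0.25 for members, glycolytic enzymes and other hypoxia targets in A549. The hypoxia targets had -0.21 in HCT116 with no filter on dim probes and -0.34 in A549 without areas of stray signal. The latter step dropped ADM and KDM3A for stray signal on HCT116 miR-891b and not on an A549 array. The medians relative to all genes were chosen after seeing the data.

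Calls over all genes, lower and higher, moved as follows. Under normexp with quantile normalization they were 12 and 27 in HCT116, 429 and 334 in A549 and 1394 and 1152 between the lines. With no filter on dim probes they were 1434 and 2788, 3080 and 2933, and 6539 and 5300. At 1.5-fold they were 1080 and 747, 3259 and 2369, and 5482 and 3861, and at 3-fold 13 and 68, 326 and 224, and 1429 and 968. Without areas of stray signal 139 genes were higher in HCT116, against 221. The cause of these shifts was not tested beyond what the settings themselves change. The sign of the change was kept over the alternatives for 24 of 30 members in HCT116 (not for GPI, GAPDH, ENO1, PKM, LDHA and BNIP3L) and for 28 of 32 in A549 (not for ALDOA, TPI1, ENO2 and LDHB). Values of SLC2A3, CA9 and CA12 in HCT116 are near background, which limits their precision.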
